A study of Mus musculus with 3 samples.

Results

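The stefin A genes of the mouse and *Cstb*, the gene of stefin B, were followed through single-cell RNA sequencing of bone marrow CD133+ cells, which the study calls endothelial-like cells (ELCs). Of the 27998 genes in the count matrices, 8 were taken, namely *BC100530*, *Stfa1*, *BC117090*, *Stfa2l1*, *Stfa2*, *Stfa3*, *Gm5483* and *Cstb*. They were chosen by family and because *BC100530* and *Stfa2* led all genes in the ratio of the old over the young library, so their old over young values are a description and not evidence. Each of the 3 libraries, labelled young, old and control, held CD133+ cells sorted by FACS from the marrow of C57BL/6 mice (C57BL/6N for the control in the study's text), and 1 library was made for each label. Cells of 3 mice were pooled in a library, and no treatment or allele is labelled. The label of the young and the control library is 3 months, and that of the old library is 27 months, while the design text of the series gives 18.5 months for the old mice and also names the tissue as intestinal, where the labels say bone marrow. Because every group is 1 library, variation from mouse to mouse is not seen in these data, no test was made, and age, mice and library cannot be told apart.

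Stefins are small cytosolic inhibitors that bind and block papain-like cysteine proteases such as the cathepsins. Stefin B is made in most tissues, whereas stefin A is known from epithelia and from cells of the neutrophil lineage. In the mouse the stefin A gene has been copied into a cluster of near neighbours, and the copies are known to be active in bone marrow and in neutrophils. Neutrophils mature in the marrow from promyelocytes, which make myeloperoxidase (*Mpo*), to late cells that make the secreted protein of *Retnlg* and the collagenase of *Mmp8*.

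Each unique molecular identifier (UMI) stands for 1 captured mRNA. After removing the 5% of cells with fewest and the 5% with most UMIs (limits were set for the young and old cells together and for the control cells alone), and those above 20% mitochondrial UMIs, 7378 young, 9681 old and 9780 control cells with 74708327, 119588365 and 95980225 UMIs were kept. The median was 10174.5 UMIs per young cell, 12690 per old cell and 9560.5 per control cell. Markers of neutrophil precursors (*Ngp*, *Camp*, *Ltf*, *Lcn2* and *Cebpe*) summed to between 106803 and 122555 UMIs per 1000000 UMIs (CPM). The 5 endothelial markers tried summed to at most 4.34 CPM, and the defining endothelial gene *Cdh5* had 37 UMIs in the young library, 0 in the old and 3 in the control, so that the name ELC is kept here only as the study's name for the sorted cells. Between 120 and 161 barcodes were shared by each pair of libraries, and without such cells the stefin A level was 73.9 CPM in the young, 1030 CPM in the old and 56.2 CPM in the control library.

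The 7 stefin A genes taken here lay within 299 kb of chromosome 16 of the build GRCm38 (36156811 to 36455392), in the order *Stfa2l1*, *Gm5483*, *Stfa1*, *BC117090*, *BC100530*, *Stfa2* and *Stfa3*. The first 3 were on the plus strand and the other 4 on the minus strand. *Gm15845* on the opposite strand overlapped *BC100530*, and no annotated gene overlapped any of the other 6. *Cstb* lay apart, on chromosome 10 from 78425669 to 78427622 on the plus strand. RefSeq holds *BC100530* as *Cstdc5* and *Gm5483* as *Cstdc4*, and it gave the bases before the start of 6 of the 8 genes. A run of 30 bases is shown for each of these 6, since it is the stretch that the copies have in common before their starts. The sequences are from RefSeq (build GRCm38.p6), 5′ to 3′ on the strand of the gene. Capitals mark the repeat GAGGAGGAG and the TATA-like box TTTAAA.
Stfa2l1: GAGGAGGAGtttacagaaaccTTTAAAacc
Stfa2: GAGGAGGAGcttacagaaaccTTTAAAacc
Stfa1: GAGGAGGAGctttcggataccTTTAAAacc
BC100530: GAGGAGGAGtttacagataccTTTAAAacc
Gm5483: GAGGAGGAGtttacagataccTTTAAAacc
Stfa3: GAGGAGGAGcttacagataaccTTTAAAac

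These runs lay at chr16:36156757-36156786 for *Stfa2l1*, chr16:36408384-36408413 for *Stfa2*, chr16:36277097-36277126 for *Stfa1*, chr16:36367571-36367600 for *BC100530*, chr16:36184162-36184191 for *Gm5483* and chr16:36455416-36455445 for *Stfa3*. The box began between 29 and 33 bases before the RefSeq start in 5 of them and 9 bases before it in *BC100530*. In GENCODE M21 the runs of *BC100530*, *Stfa1* and *Stfa2* lie inside the first exon of a transcript that starts further upstream. Repeat and box were 12 bases apart in 5 genes and 13 bases apart in *Stfa3*. Among 32851 RefSeq promoters, TTTAAA was found in the last 100 bases before the start in 4.39% and GAGGAGGAG, on either strand, in 1.46%. The repeat was chosen after the sequences had been read. Of other motifs sought on both strands in the same window, the PU.1-type core GAGGAA was in 3 of the 6 genes and 9.82% of all promoters, and the C/EBP-type site TTNNGNAA was in 3 of the 6 and 14.9%. The AP-1 site TGANTCA (2.73% of all promoters), the STAT-type site TTCNNNGAA (2.55%) and the E box CANNTG (34.4%) had no match in the 6 windows. GAGGAA and GAGGAGGAG can overlap by a few letters. Over 250 bases before the start, the identity of 2 genes was between 65.1% (*BC100530* and *Gm5483*) and 89.4% (*Stfa2l1* and *Stfa2*).

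How well 3′ reads can tell the members apart was described by the identity of coding sequences and by windows at the end of the transcripts. The sequence groups below rest on coding identity alone. Between stefin A genes the identity was 74.8% to 97.9% with a median of 80% over 21 pairs, and between *Cstb* and a stefin A gene it was 56.0% to 62.7%. *BC100530* and *Stfa1* were 97.9% identical, *BC117090* was 95.9% identical to *BC100530* and 94.2% to *Stfa1*, and *Stfa2l1* and *Stfa2* were 96.4% identical. No other pair reached 90%, so the members fell into 4 sequence groups, that of *BC100530*, *Stfa1* and *BC117090*, that of *Stfa2l1* and *Stfa2*, and *Stfa3* and *Gm5483* by themselves. In the last 400 bases of the transcript, 77.4% of the 100-base windows of *BC100530* and 90.4% of those of *Stfa1* occurred in no other gene, but 69.4% and 65.1% lay within 2 mismatches of another member. The same share was 37.9% for both *Stfa2l1* and *Stfa2*, and 0% for *Stfa3*, *Gm5483* and *Cstb*. Of *Gm5483*, however, only 88.4% of the 100-base windows and 63.0% of 50-base windows occurred in no other gene, so that it shares sequence with another annotated gene, while *Stfa3* and *Cstb* were at 100% for both lengths. Values of *Gm5483* and of single genes of the first 2 groups are therefore uncertain, whereas group sums do not change when a read is given to the wrong copy of the group.

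*BC100530* had 15.2 CPM in the young library (95% interval 14.3 to 16.1), 408 in the old (405 to 412) and 13.3 in the control (12.6 to 14.1). *Stfa1* had 30.6 CPM in the young, 337 in the old and 37.1 in the control library. *Gm5483* had 16.2 CPM in the young, 117 in the old and 2.87 in the control library. For all 3 genes the old library stood far above the other two, and only for *Gm5483* did the young library stand clearly above the control.

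*Stfa2l1* had 6.83 CPM in the young, 76.4 in the old and 2.41 in the control library. *Stfa3* had 2.68, 44.5 and 1.26 CPM in the same order. *Stfa2* had 1.66, 40.7 and 0.198 CPM, and rested on 124, 4869 and 19 UMIs. These genes were scarce at 3 months, and the control library was the lower of the 2 libraries of that age in each. *BC117090* was at the edge of detection, with 13 UMIs in the young library, 243 in the old (2.03 CPM) and 4 in the control, and it was below 10 CPM in each.

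*Cstb* did not share this pattern. It had 80.4 CPM in the young (78.4 to 82.5), 88.8 in the old (87.1 to 90.5) and 65.5 in the control library (63.8 to 67.1), so that it had the most UMIs of all members in the young and the control library and was behind *BC100530*, *Stfa1* and *Gm5483* in the old. UMIs of a 3′ kit do not grow with the length of a transcript, but stefin A and *Cstb* are not equally easy to count. Of the 100-base windows, 77.4% of *BC100530* and 100% of *Cstb* occurred in no other gene. What shared sequence takes from the stefin A counts was not tested, so these levels can be set beside each other only roughly. Summed over the 7 genes, stefin A had 73.4 CPM in the young (5482 UMIs), 1026 in the old (122686 UMIs) and 57.2 in the control library (5493 UMIs). As counted, UMIs of stefin A and of *Cstb* were thus about equally frequent at 3 months, and in the old library stefin A UMIs exceeded those of *Cstb*.

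**Figure D1:**
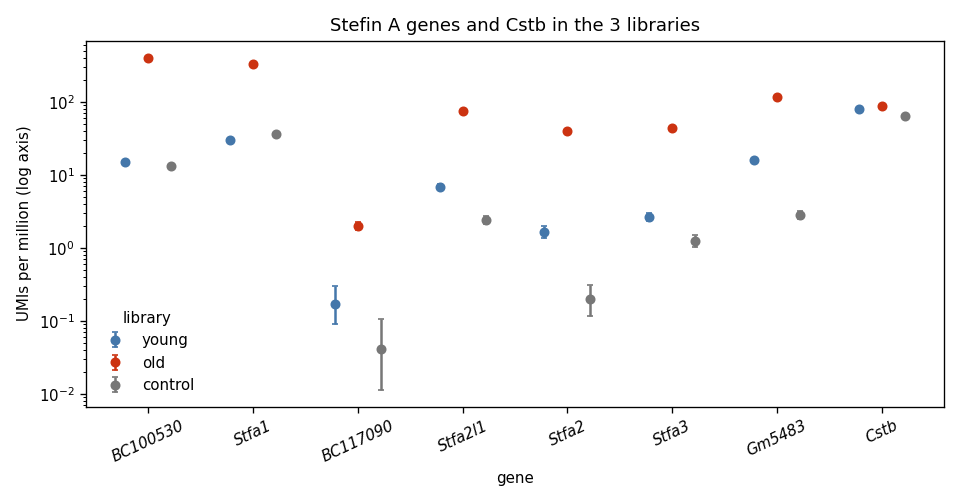
UMIs per 1000000 UMIs (log axis) of the 8 genes in the young (blue), old (red) and control (grey) library, with 1 library per point; bars are exact 95% Poisson intervals for counting error only. The old library is highest for each of the 7 stefin A genes, while *Cstb* lies between 65.5 and 88.8 CPM in all 3.

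The old over young ratio, by which the members were picked, was 26.9-fold for *BC100530* (25.4 to 28.6), 24.5-fold for *Stfa2* (20.5 to 29.6), 16.6-fold for *Stfa3* and 7.18-fold for *Gm5483*. *Stfa2l1* and *Stfa1* were 11.2-fold and 11.0-fold higher, and *Cstb* 1.10-fold (1.07 to 1.14). Of the 5761 genes that reached 10 CPM in one library or both, these ranked 1, 2, 7, 16, 12, 13 and 1140. At a limit of 1.5 times, 6 of the 7 members measured were higher and 0 lower, where 4.36% of all genes were higher and 14.7% lower. *Stfa2l1*, *Stfa2* and *Stfa3* reached 10 CPM in the old library alone and therefore had to differ. The stefin A sum was 14.0-fold higher in the old library (13.6 to 14.4), while the median log2 ratio of all genes was -0.15. When the 5 bands of cells described further on were given equal weight, the ratio was 13-fold for *BC100530*, 8.67-fold for *Stfa2*, 8.15-fold for *Stfa3*, 6.01-fold for *Stfa1*, 4.62-fold for *Stfa2l1* and 3.05-fold for *Gm5483*. For equal weight the CPM values of the bands were averaged before the ratio was taken. A band with high levels, for the stefin A sum band 5, therefore counted most, and these values are not a mean of the ratios within bands.

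Over the control library, which shares the old library with the previous ratio, *Stfa2* was 206-fold higher (132 to 342, from 19 control UMIs), *Gm5483* 40.7-fold, *Stfa3* 35.3-fold, *Stfa2l1* 31.7-fold, *BC100530* 30.7-fold and *Stfa1* 9.08-fold. *Cstb* was 1.36-fold higher (1.31 to 1.40). Again 6 of the 7 measured members passed the limit upward and 0 downward, against 5.37% and 8.78% of 5470 genes, and 4 of the 6 (*Stfa2l1*, *Stfa2*, *Stfa3* and *Gm5483*) were measured through the old library alone. The stefin A sum was 17.9-fold higher (17.4 to 18.4). With equal bands *Stfa2* was 53.5-fold, *Gm5483* 13.5-fold and *Stfa2l1* 9.28-fold higher.

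Both 3-month libraries are set against each other by the last ratio. Here 1 of the 4 members measured, *Gm5483*, was lower in the control library, by 2.50 on the log2 scale (-2.70 to -2.31), and 0 were higher, against 6.62% and 1.59% of 5728 genes. With equal bands 4 of 5 measured members were lower, and at a minimum of 1 CPM 4 of 7. The share of all genes was not computed at these 2 settings, so these counts cannot be called unusual. The control over young log2 ratio was 0.28 (0.20 to 0.35) for *Stfa1* and -0.30 for *Cstb*, but -0.71 and 0.027 when the 5 bands of cells described further on were weighted equally. When only cells with markers of another blood cell type were left out, the ratio was 0.16 for *Stfa1* and -0.049 for *Cstb*. For *BC100530* it was -0.19, and -1.07 with equal bands. Within bands 1 to 5 the ratio of *Stfa1* was 0.0063, 0.31, 0.59, -0.28 and -1.79. That of *BC100530* was -0.10, 0.75, 0.29, -0.25 and -1.75. For both genes band 5 thus stood apart from bands 1 to 4. Below the level needed for the count, *Stfa2l1*, *Stfa3* and *Stfa2* had log2 ratios of -1.50, -1.09 and -3.07. The sequence group of *BC100530*, *Stfa1* and *BC117090* had 46.0 CPM in the young and 50.5 CPM in the control library, and that of *Stfa2l1* and *Stfa2* had 8.49 and 2.60 CPM. Thus 2 libraries of the same labelled age differed, as counted, in the makeup of the family. The sum differed by 0.36 on the log2 scale (control over young -0.36, -0.41 to -0.30), and by 1.23 with equal bands (-1.23). The intervals treat UMIs as independent. However, cells rich in stefin A (defined further on), 0.895% of young and 0.910% of control cells, held 51.1% and 43.1% of these UMIs. The differences may therefore rest on few cells. By band the sum had no single direction, with -0.77, 0.14 (-0.12 to 0.40), 0.30 (0.22 to 0.39), -0.61 and -1.80 in bands 1 to 5.

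Other genes of the cluster were sought by symbol, and 5 of 9 further stefin A loci were in the matrices. *2010005H15Rik* had 35 young, 564 old and 38 control UMIs, and *Gm5416* had 22, 100 and 10. *Gm4758* had 1 UMI in the old library, and *Csta1* and *Gm5689* had 0 in all 3, which allows up to 0.0402, 0.0251 and 0.0313 CPM in the young, old and control library at a floor of 3 UMIs. The 2 further loci with more than 1 UMI were higher in the old library, with log2 ratios over young of 3.33 (2.84 to 3.87) and 1.51 (0.83 to 2.24). Both were under 10 CPM in each library, at most 4.72 and 0.836 CPM, and no share of all genes at such levels was computed. Whether their UMIs come from reads of the members was not tested, so they are not separate support.

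The genes beside the cluster were described in the same way. Within 500 kb of a member 7 other genes had at least 10 CPM in a library, of which 0 were 1.5 times higher and 2 lower in the old over the young library, against 4.36% and 14.7% of all genes. On the *Stfa2l1* side, *Ccdc58*, *Fam162a* and *Kpna1* had log2 ratios of -0.36, 0.21 and -0.055. *Parp9* and *Parp14*, whose proteins take part in the interferon response, were at -1.43 and -2.73. They are the 2 genes counted as lower, and they reached 10 CPM in the young library alone (11.8 and 12.2 CPM), so they could only be lower. On the *Stfa3* side *Golgb1* and *Hcls1* were at -0.20 and 0.35.

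**Figure D2:**
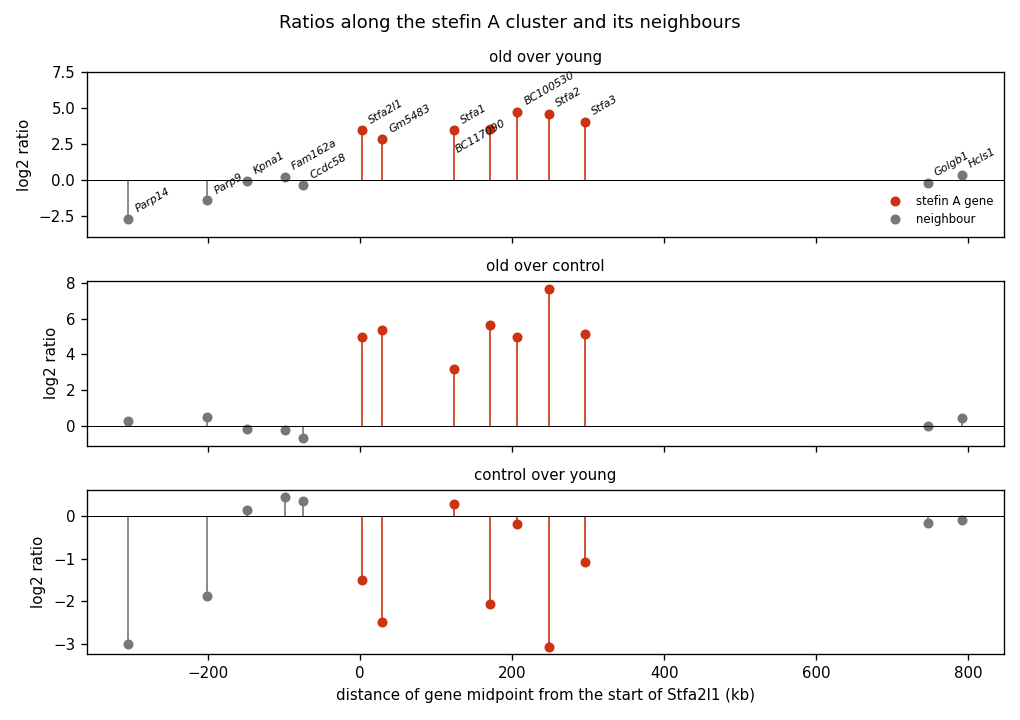
Log2 ratio of UMIs per 1000000 in 3 comparisons (old over young, old over control and control over young, from top to bottom, each panel with its own scale) against the distance of each gene's midpoint from the start of *Stfa2l1* in kb, for stefin A genes (red) and neighbours with at least 10 CPM (grey). In the 2 upper panels the 7 stefin A genes stand at 2.84 or more, and no neighbour is above 0.46.

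Next, the levels were followed over bands of cells set by *Mpo*, *Retnlg* and *Mmp8*. Cells were put into 5 bands by their UMIs per 10000, from band 1 (*Retnlg*+*Mmp8* under 5 and *Mpo* 40 or more) over band 2 (*Mpo* 10 to under 40) and band 3 (*Mpo* under 10) to band 4 (*Retnlg*+*Mmp8* 5 to under 20) and band 5 (20 or more). Cells with markers of another blood cell type were set aside, and these were 11.6% of young, 1.08% of old and 1.31% of control cells. A band is a range and not a cell type, and between 9.0% and 26.3% of the cells of a library lay within 20% of the *Retnlg*+*Mmp8* limit of 5. The cells set aside had a median *Retnlg* of 3.51 (young), 3.89 (old) and 1.80 (control) UMIs per 10000. Band 4 had medians of 6.23, 7.07 and 6.23. The limit of 5 thus lay nearer to the cells set aside in the young and old library than in the control. How far free RNA of *Retnlg* fills band 4 was not tested, so bands 3 and 4 may not match between libraries. Bands 4 and 5 were set whatever the *Mpo* of the cell, so the bands are not a strict order of maturation. In the young library *Mpo* had 356 CPM in band 3, 1719 in band 4 and 1182 in band 5. Band 5 had 360 CPM of *Mpo* in the old and 799 CPM in the control library, so cells of 1 band were not alike in *Mpo* between libraries. Band 5 held 6.18% of young, 17.1% of old and 3.87% of control cells, and stefin A per 1000000 UMIs was highest in it in each library. The lower UMI limit had removed 809 young, 139 old and 544 control cells, with *Retnlg* at 16543, 21317 and 8936 CPM. Band 5 itself had 9231, 10247 and 11542 CPM of *Retnlg*. How many removed cells would fall in band 5 was not counted, so its shares depend on this limit. By number of UMIs, band 5 held 36.9% of the stefin A UMIs of the young library, 38.5% of the old and 7.39% of the control, where band 4 held 43.2% in the old and band 3 held 75.5% in the control. With the 5 bands weighted equally the stefin A sum was 6.62-fold higher in the old over the young library, in place of 14.0-fold, and 15.5-fold over the control. Within bands 1 to 5 the old over young ratio of the sum was 8.87, 6.70, 11.0, 14.1 and 5.34-fold.

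In band 5 *BC100530* had 132 CPM in the young, 1395 in the old and 39.1 in the control library. *Stfa1* had 162, 723 and 46.9 CPM in the same order, and *Gm5483* had 211, 571 and 49.1 CPM. *Stfa2l1* had 75, 276 and 39.1 CPM, *Stfa3* had 31.5, 241 and 5.91 CPM, and *Stfa2* had 29.2, 219 and 4.55 CPM. For each of these 6 genes the order in band 5 was old, young, control, and the 95% counting intervals did not overlap. These intervals treat UMIs as independent. However, 36 young and 16 control cells rich in stefin A (defined further on) held 77.4% and 63.3% of the stefin A UMIs of band 5. As a share of the cells of band 5, rich cells had overlapping intervals in the young (5.59% to 10.8%) and the control library (2.44% to 6.78%). The stefin A sum was 643 CPM in the young, 3432 in the old and 185 in the control library there, 5.34-fold higher in the old over the young (5.11 to 5.59) and 18.6-fold over the control (16.9 to 20.5).

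To set cells of like *Retnlg* beside each other, band 5 was divided, after the data had been seen, into 4 steps of *Retnlg*+*Mmp8* (20, 40, 80 and 160 per 10000 as lower limits). *Retnlg* was then close between libraries, for example 2248, 2446 and 2202 CPM in the young, old and control cells of the first step. Stefin A had 194, 2273 and 31.1 CPM in this step, and 840, 2981 and 65.0 CPM in the second. In the third it had 532, 3616 and 222 CPM, and in the fourth 1200, 5499 and 493 CPM. The old library was thus highest and the control lowest at each step. Only the young library broke the order of the steps, where step 2 was above step 3. A single young cell of band 5 held 498 stefin A UMIs, more than all young cells of step 1 (187) or of step 3 (371). It therefore lay in step 2 or 4, and the order of steps 2 and 3 may rest on it.

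Along the bands the stefin A sum went from 16.5 CPM in band 1 over 34.1, 59.0 and 69.5 to 643 in band 5 of the young library. In the old library it went from 146 over 229, 649 and 983 to 3432, and in the control from 9.63 over 37.5, 72.8 and 45.6 to 185. Band 5 was above band 1 by 39.0-fold in the young (33.8 to 45.2), 23.5-fold in the old (22.4 to 24.7) and 19.2-fold in the control library (16.0 to 23.1). With halved *Mpo* limits the control value was 12.2-fold, and with all deposited cells 28.5-fold. Band 1 was not above the background level described further on, so these ratios and those of single members may have background in the denominator and give no exact order of the members. In the old library *Stfa3* was 51.3-fold higher in band 5 than in band 1, *Stfa2* 44.3-fold, *Stfa2l1* 41.3-fold, *Gm5483* 36.6-fold, *BC100530* 22.2-fold and *Stfa1* 14.1-fold (13 to 15.3). *Stfa1* had the lowest ratio of the same 6 genes in the young library as well, at 27.3-fold (21.4 to 35.2), and the lowest of the 5 genes with a UMI in both bands in the control, at 7.86-fold (5.93 to 10.4). *Stfa2* had 0 UMIs in band 1 of the control library, which allows up to 0.172 CPM, and 4.55 CPM in band 5.

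*Cstb* took another course. It had 109 CPM in band 1 of the young library, 145 in the old and 108 in the control, between 46.0 and 61.7 CPM in band 3, its lowest in each library, and between 100 and 135 CPM in band 5. The ratio of band 5 over band 1 was 0.917 (0.809 to 1.04), 0.934 (0.875 to 0.998) and 0.968 (0.841 to 1.11). Within bands *Cstb* was between 1.17-fold and 1.41-fold higher in the old over the young library, and the control over young interval included no difference in each of the 5 bands. Monocytes, set aside from the bands, had *Cstb* at 307, 435 and 269 CPM and stefin A at 15.6, 165 and 5.48 CPM in the young, old and control library, so that *Cstb* was higher and stefin A lower in monocytes than in band 5 of the same library.

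**Figure D3:**
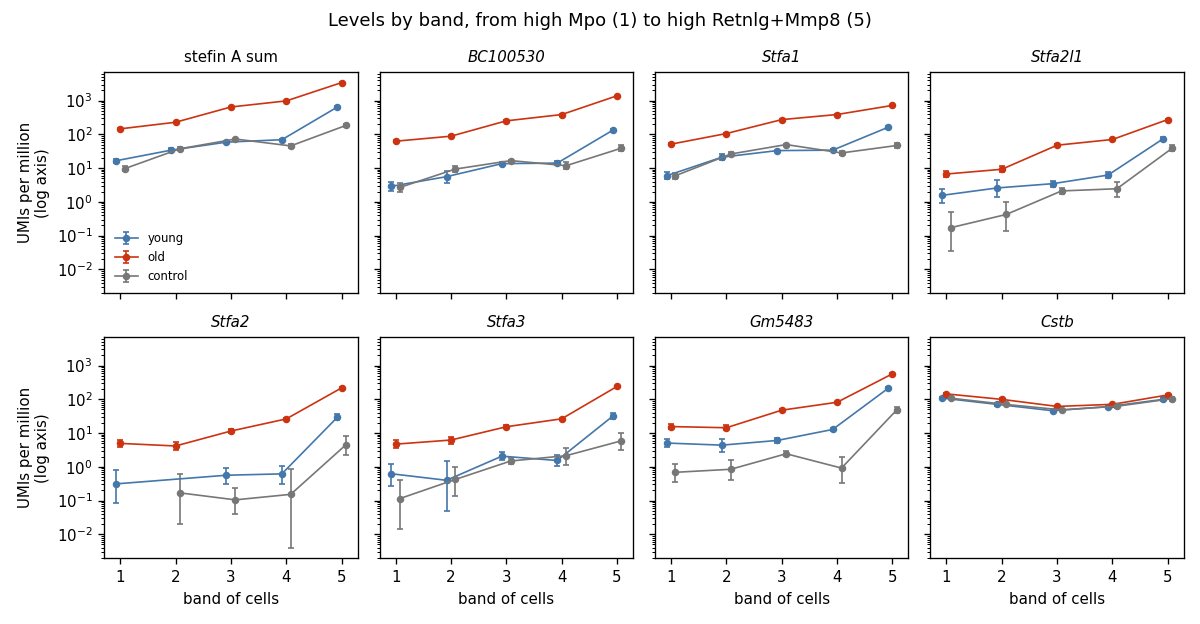
UMIs per 1000000 (log axis) of the stefin A sum, 6 stefin A genes and *Cstb* in bands 1 to 5 of the young (blue), old (red) and control (grey) library, with exact 95% Poisson intervals; a band with 0 UMIs has no point. The stefin A genes are highest in band 5 of each library except *Stfa1* in the control (46.9 CPM in band 5 and 49.9 in band 3), and *Cstb* is lowest in band 3.

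The low values of the early bands need a measure of free RNA, which gives UMIs to cells that do not make a gene. B progenitors, NK, T and erythroid cells, which should lack stefin A, served for this. With each cell thinned to 3000 UMIs, 5.16% of 310 such cells in the young, 60.0% of 20 in the old and 3.51% of 57 in the control library had a stefin A UMI (exact binomial intervals 2.98 to 8.25, 36.1 to 80.9 and 0.428 to 12.1), and 15.2%, 95% and 10.5% did before thinning. Their median depth was 8714, 12167 and 7056 UMIs, and their stefin A level was 29.0, 398 and 55.0 CPM. In each library 1 of these cells held a large part of their stefin A UMIs, 21.2%, 38.3% and 72.0%. Without that cell the level was 22.9, 259 and 15.8 CPM. Thinned shares in band 1 were 4.18%, 36.4% and 2.24% at median depths of 12575, 15326 and 12821 UMIs. Band 1 was therefore at or below the cells that should lack the genes, by share and by level, in each library. Its values, also the 8.87-fold higher sum in the old library, were not told apart from background, and the part of free RNA was not tested. Old band 2 was below the comparison cells by both measures as well, at 43.5% and 229 CPM. Old bands 3 and 4 had shares below that of the comparison cells, at 52.6% and 54.1%, but levels of 649 and 983 CPM, above the 398 CPM of those cells (322 to 487). The share of 70.5% in old band 5 lay inside their interval, and its level of 3432 CPM far above theirs. Bands 2 to 4 of the control library, at 7.77%, 8.53% and 7.29%, also lay inside that interval of their own library, as did band 4 of the young library at 7.32%, while bands 2 and 3 of the young library (10.1% and 8.86%) lay above it. By level, control bands 2 to 4 had 37.5, 72.8 and 45.6 CPM. These lay inside the interval of their comparison cells (35.6 to 81.1), though above the 15.8 CPM without 1 cell. With all comparison cells, control bands 1 to 4 were therefore not told apart from background. Young bands 2 to 4 had 34.1, 59.0 and 69.5 CPM, against 23.1 to 35.8 in their comparison cells. Shares of cells with a UMI were of no use in the old library.

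A stricter count was therefore made, with a limit set after the data had been seen: a cell was called rich in stefin A when it had at least 5 stefin A UMIs among 3000 thinned UMIs. None of the 1029 young, 814 old and 1428 control cells of band 1 was rich, which allows up to 0.358%, 0.452% and 0.258% by the exact binomial interval. Rich cells were 0.246% of young, 2.19% of old and 0.671% of control cells in band 2, and 0.435%, 9.60% and 1.05% in band 3. They were 0.760%, 11.8% and 0.326% in band 4, and 7.89% (5.59 to 10.8), 31.2% (28.9 to 33.5) and 4.23% (2.44 to 6.78) in band 5. In bands 3, 4 and 5 the old share was above that of both 3-month libraries. The genes had been picked by their old over young ratio, so this is a description and not evidence. Cells of 1 library are not replicates, and the intervals do not cover the spread between mice. Of all cells set aside as other blood cells, 0.234% of 854 young, 2.86% of 105 old (0.593 to 8.12) and 0.781% of 128 control cells were rich. Among the B, NK, T and erythroid cells alone 1 cell was rich in each library, which was 0.323% of 310 young, 5.0% of 20 old (0.127 to 24.9) and 1.75% of 57 control cells, so that in the old library band 5 lay above this interval and bands 3 and 4 inside it. With a limit of 3 UMIs the shares in band 5 were 11.4%, 40.9% and 6.61%, and with 10 UMIs they were 5.48%, 22% and 1.85%.

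Stefin A messages were concentrated in these cells. In the old library 12.8% of all kept cells were rich and held 78.5% of its stefin A UMIs, in the young 0.895% held 51.1%, and in the control 0.910% held 43.1%. In band 5 of the old library the rich cells held 92.5%. Cells that were not rich had 146, 193, 251, 261 and 365 CPM in bands 1 to 5 of the old library, against 220 CPM in its other blood cells. Since rich cells were chosen by their stefin A UMIs, the values of the remaining cells are lower by construction. The young cells that were not rich had 16.5 to 39.3 CPM in bands 1 to 4 and 156 in band 5, and the control cells 9.63 to 39.0 and 70.3. The single richest cell, with 498 stefin A UMIs of 8011 in the young library, held 9.08% of the stefin A UMIs there, 0.703% in the old and 3.46% in the control. Without it the level was 66.7 CPM in the young, 1019 in the old and 55.3 in the control library.

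**Figure D4:**
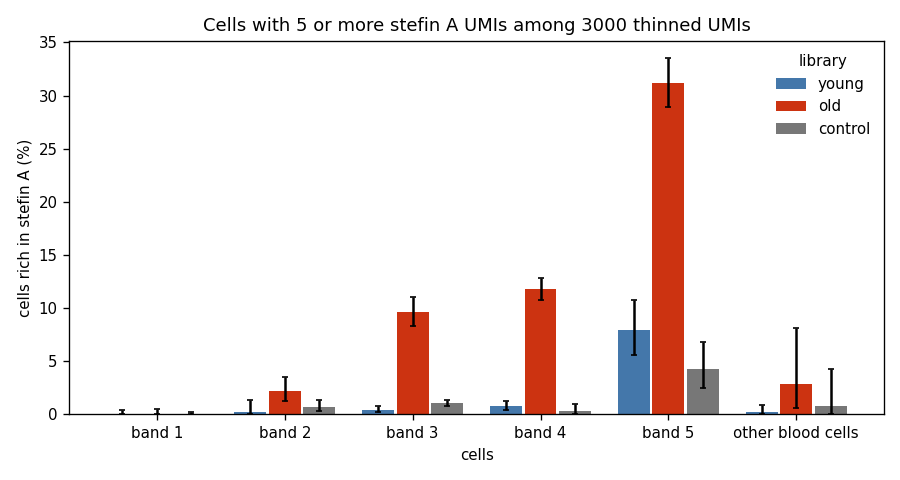
Share of cells (%) with 5 or more stefin A UMIs among 3000 thinned UMIs in bands 1 to 5 and in cells with markers of another blood cell type, for the young (blue), old (red) and control (grey) library; bars start at 0 and lines are exact 95% binomial intervals. No cell is rich in band 1, and in bands 3 to 5 the old share (9.60%, 11.8% and 31.2%) exceeds the other two.

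The depth of rich cells was of the order of that of the other cells. In band 5 the median was 5732.5 UMIs for 36 rich and 5142.5 for 420 other young cells, 7425 against 8047.5 in the old library, and 4016.5 against 4671.5 in the control. *Retnlg* was higher in the rich cells of band 5 in each library, by a log2 ratio of 1.12 (1.07 to 1.17) in the young, 0.72 in the old and 1.42 in the control. In band 3, where *Retnlg* was kept low by the band limits, it had log2 ratios of -0.004, 0.043 and 0.083. *Cstb* was close in rich and other cells of band 5, with log2 ratios of 0.16 (-0.49 to 0.75), 0.21 (0.07 to 0.35) and -0.26 (-1.59 to 0.81). *Ctsb*, the gene of the stefin target cathepsin B, was at -0.49 (-1.24 to 0.17), 0.12 (-0.034 to 0.27) and 0.21 (-1.03 to 1.21). Intervals here count UMIs, and cells of 1 library are not replicates.

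The makeup of the family shifted between bands, and it is given by sequence groups because reads can be exchanged within a group. *BC100530*, *Stfa1* and *BC117090* made up 79.4% of the stefin A UMIs in band 3 of the young library, 81.1% in the old and 91.6% in the control. In band 5 they made up 46.0% (43.8 to 48.2), 61.9% (61.4 to 62.3) and 46.6% (41.6 to 51.5). These intervals treat UMIs as independent, although 1 young cell held 498 of the 2022 young stefin A UMIs of band 5. In the control, 16 rich cells held 63.3% of them. The young and control makeup of band 5 may therefore rest on few cells. *Gm5483* went the other way, from 10.3%, 7.35% and 3.35% in band 3 to 32.9%, 16.6% and 26.6% in band 5. *Stfa2l1* and *Stfa2* together made up 16.2%, 14.4% and 23.6% in band 5. In each library the share of the first group was thus lowest in the cells with most *Retnlg* and *Mmp8*. In the young library, however, band 1 had 54.0% (47.1 to 60.9), which overlaps the interval of band 5. *Gm5483* made up 30.8% in that band. Over the whole young library the shares were 62.7% and 22.1%. In band 1 of the old library, which was not above background, the first group made up 78.1% and *Gm5483* 10.7%, close to the 72.9% and 11.4% over the whole library.

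Among rich cells alone, which are least touched by free RNA, the share of the first group was also lower in band 5 than in band 3. In band 3 *BC100530* and *Stfa1* made up 38.1% and 49.7% of the stefin A UMIs of 11 young cells, 40.2% and 43.1% in 195 old cells, and 24.3% and 69.4% in 62 control cells. In band 5 they made up 23.2% and 28.4% in 36 young cells, 41.5% and 20.7% in 515 old cells, and 24.1% and 23.7% in 16 control cells. *Stfa2* and *Stfa3* went from 1.35% and 1.41% in rich old cells of band 3 to 6.44% and 7.15% in band 5. In the old library it was *Stfa1* and not *BC100530* whose share was lower in band 5. The control was alike, with *BC100530* at 24.3% and 24.1% in bands 3 and 5, while in the young library both shares were lower. These 2 genes may, however, exchange reads. *Gm5483* made up 16.8% in rich old cells of band 5 against 31.0% in the young and 33.9% in the control. Of the 1566 stefin A UMIs of the rich young cells of band 5, 1 cell held 498, so the young and control shares may rest on few cells.

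**Figure D5:**
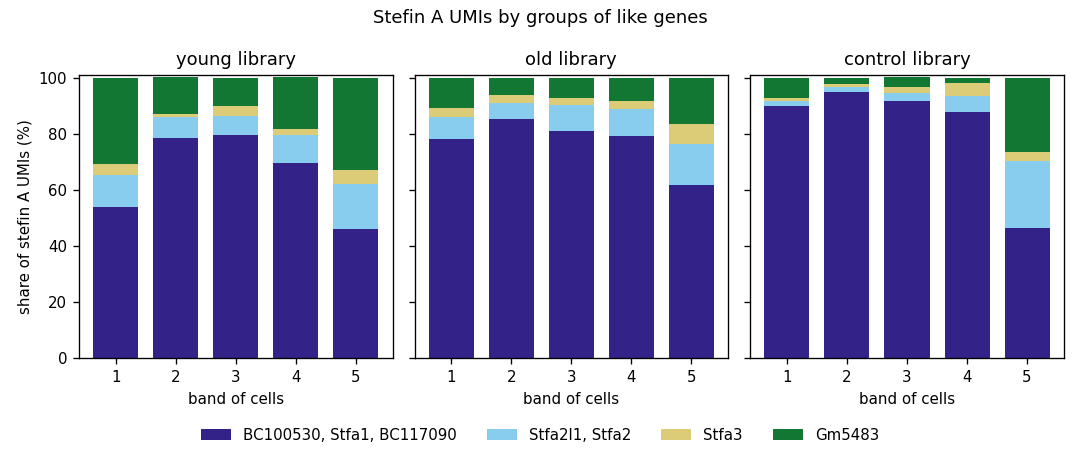
Share of the stefin A UMIs (%) taken by 4 groups of genes of like coding sequence in bands 1 to 5 of the young, old and control library; stacked bars add to 100%. In band 5 of each library the group of *BC100530*, *Stfa1* and *BC117090* (dark blue) has its lowest share, and *Gm5483* (green) is larger there than in band 4.

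Cysteine proteases, most of them cathepsins of the kind that stefins inhibit, were described next, from a list of 13 genes. Of these 6 were measured in old over young, of which 0 were 1.5 times higher and 3 lower in the old (4.36% and 14.7% of all genes), with a median log2 ratio of -0.63 against -0.15 for all genes. *Ctss*, the gene of cathepsin S, had 76.6 CPM in the young, 7.76 in the old and 4.11 in the control library. It reached 10 CPM in the young library alone and could only be lower in the old and the control library. *Ctsc*, whose protease activates the granule serine proteases, had 41.9, 21.9 and 11.9 CPM. *Ctsh* had 119, 63.6 and 74.9 CPM, *Ctsb* had 197, 153 and 135 CPM, and *Ctsz* had 145, 133 and 140 CPM. The low values of *Ctss* and *Ctsc* were in both libraries with few other blood cells: the 7 monocyte markers summed to 200, 31.0 and 19.7 CPM in the young, old and control library, with 4, 1 and 0 of the 7 at 10 CPM or more and 0 of the 7 at 0 UMIs, and the part of such cells in these 2 genes was not tested. *Capn1*, the gene of a calpain and so of another protease family, was at 17.7, 26.0 and 21.6 CPM. Over the control, 1 of 5 was higher and 0 lower in the old library (5.37% and 8.78% of all genes), with a median of 0.18, and control over young had 0 higher and 3 lower of 6 (1.59% and 6.62%).

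Other cystatins, which inhibit the same proteases mostly outside the cell, were hardly measured. Of 15 listed, *Cst3* had 682 CPM in the young, 451 in the old and 467 in the control library, and *Cst7*, the gene of cystatin F, had 114, 85.0 and 107 CPM. Of 29 late neutrophil genes 27 were measured, 11 higher and 3 lower in the old over the young library (4.36% and 14.7% of all genes), with a median log2 ratio of 0.52. *Asprv1*, the gene of an aspartic protease, and the formyl peptide receptor gene *Fpr1* were highest at 3.74 and 1.84, and *Cxcr4*, whose receptor holds cells in the marrow, and *Ccl6* were lowest at -1.61 and -1.26. *Asprv1* and *Fpr1* reached 10 CPM in the old library alone (76.2 and 33.9 CPM). They could therefore only be higher, and they are among the 11 higher genes both here and over the control. Of 9 early granule genes measured 0 were higher and 4 lower (the same 4.36% and 14.7% of all genes) with a median of -0.42, where *Ctsg* and *Ms4a3* were highest (0.16 and 0.058) and *Mpo* and *Nkg7* lowest (-0.81 and -0.75). Over the control the late genes had 11 higher and 1 lower of 27 (5.37% and 8.78% of all genes) with a median of 0.26.

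Genes that followed the stefin A sum most closely over the 15 combinations of library and band were named by Pearson correlation of log2(CPM+1), as a description, since the points share libraries, depth and free RNA. Of 6950 genes with 10 CPM in a combination, *Zfp36l1*, *Asprv1*, *Tgfbi* and *Wfdc17* had a correlation of 0.96 and *Tuba1a* of 0.95. *Zfp36l1* was scarce, with 5.72, 15.5 and 2.27 CPM in band 5 of the young, old and control library. In band 1 it had 0.234, 2.72 and 0.0573 CPM, so its correlation rests in part on few UMIs. *Wfdc17*, whose protein belongs to the whey acidic protein family, had 47.7 CPM in the young, 377 in the old and 13.3 in the control library, and *Asprv1* had 5.69, 76.2 and 3.18 CPM. Both were in the order old, young, control, as were *Zfp36l1* (2.66, 6.06 and 0.271 CPM), *Tgfbi* (19.0, 33.3 and 7.05 CPM) and *Tuba1a* (24.9, 50 and 21.9 CPM). In rich cells of band 5 *Wfdc17* had a log2 ratio over the other cells of 4.14 (3.91 to 4.38) in the young and 1.58 (1.55 to 1.62) in the old library, but of -0.07 (-1.30 to 0.93) in the control. *Cstb* had a correlation of 0.22 with the sum, *Retnlg* of 0.67 and *Cxcr2* of 0.81.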

How the data were processed

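CD133+ bone marrow cells were sequenced by the authors as 3 libraries with the 10x 3′ v2 kit. Reads were aligned with STAR and counted with Cell Ranger 2.1.0 on mm10, per the submitters' processing notes. The deposited matrices hold whole UMI counts per gene and cell, without normalization. Their barcodes carry a running number per library. Whether depth was equalised between libraries is not given in the sources used here.

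Cells needed 200 genes, at most 20% mitochondrial UMIs and a UMI count between the 5th and 95th percentile (of the young and old cells together, and of the control cells by themselves). Doublets were not removed. A cell was set aside as another blood cell with 5 UMIs per 10000 and 3 genes of 1 marker list. UMIs were summed and given per 1000000 UMIs (CPM), with exact 95% intervals (Poisson, Clopper-Pearson, and conditional binomial for ratios) that cover counting error only. With 1 library per group no test was made, and genes were counted by a limit of 1.5 times at 10 CPM or more. The members and lists were chosen with earlier results of these data known. Text names all members, of each list the 2 highest and 2 lowest old over young ratios with genes set beside a member, the 5 genes most like the sum, and neighbours within 500 kb. The ratio calculation was checked on simulated UMIs that were drawn independently. These were not concentrated in few cells as those of stefin A are, so the check does not show how the intervals hold for stefin A. Of 27998 gene identifiers 27645 were found in GENCODE M21, which gave positions, strands and transcripts. Coding sequences were taken as the longest reading frame. Tables were handled with pandas 2.3.3 and numpy 2.4.6 under Python 3.11.15, intervals came from scipy 1.17.1, identities from biopython 1.88 and figures from matplotlib 3.10.9.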

Additional observations from a re-analysis of the deposited data

Results flagged for a closer look

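Cells removed for their UMI count were left out of the values of the report and enter only the alternative with all deposited cells, and they also held stefin A messages. Below the 5th percentile the stefin A sum was 572 CPM (543 to 602) in 809 young cells and 2242 CPM (2110 to 2380) in 139 old cells, above the 279 CPM of 544 control cells. *Retnlg* had 16543 and 21317 CPM in these young and old cells and 8936 CPM in the control cells. Above the 95th percentile the sum was 598 CPM (587 to 609) in 776 old cells, against 33.3 CPM in 544 control and 26.2 CPM in 171 young cells. These differences were not tested.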

How the results depend on the processing

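No paired analysis was possible because each group is 1 library. The stefin A sum over all kept cells kept its direction in all 3 comparisons under every alternative run. Within single bands, however, control over young changed sign. It was -0.77, 0.14, 0.30 (0.22 to 0.39), -0.61 and -1.80 in bands 1 to 5, and band 3 held 75.5% of the stefin A UMIs of the control library. The log2 ratio of old over young, 3.81 as reported, was 3.48 with all deposited cells, 3.59 with percentile limits per library, 3.70 without other blood cells, 4.09 per cell, 4.10 with size factors, 2.73 with the 5 bands weighted equally and 3.93 without the richest cell of each library. Old over control, 4.16 as reported, was 4.07 with all cells, 4.10 with limits per library, 4.50 per cell, 4.30 with size factors, 3.96 with equal bands, 4.34 with thinned cells and 4.2 without the richest cells. Control over young, -0.36 as reported, was -0.58 with all cells, -0.50 with limits per library, -0.47 without other blood cells, -0.20 with size factors, -1.23 with equal bands (2.35-fold lower in the control), -0.51 with thinned cells and -0.27 without the richest cells. For band 5 over band 1, the young value of 5.29 became 5.60 with cells thinned first, 5.67 with doubled *Retnlg*+*Mmp8* limits and 4.88 without the richest cell. The old value of 4.55 became 4.16 with thinned cells and 4.40 with halved *Mpo* limits. The control value of 4.26 became 4.84 with all cells, 4.54 with thinned cells, 3.61 with halved *Mpo* limits and 4.69 with doubled *Retnlg*+*Mmp8* limits. The member count past the limit in control over young, 1 as reported, was 0 at a minimum of 50 CPM, 4 at 1 CPM and 4 with equal bands, without a share of all genes at these settings. Control over young turned for *Stfa1*, from 0.28 to -0.71, with equal bands. For *Cstb* it went from -0.30 to 0.027 with equal bands, a setting that also leaves out other blood cells. Leaving out those cells alone gave -0.049 for *Cstb* and 0.16 for *Stfa1*. In each of the 5 bands the *Cstb* interval included no difference. For *Stfa1* the log2 ratio was -1.79 in band 5 and between -0.28 and 0.59 in bands 1 to 4. The causes were not tested. The removal of the richest cells and the limits for rich cells were chosen after the data had been seen. Ratios of each stefin A gene were also recomputed under alternative settings, which gave 35 values per comparison. These values repeat the same genes and libraries and are not separate observations. Old over young had 35 of 35 higher (1.61 to 5.04), old over control 35 of 35 (3.15 to 8.02), and control over young 4 higher and 31 lower. The genes were chosen partly by their old over young ratio, and no share of all genes was set beside these counts. The counts with the old library thus describe stability to the settings and are not evidence of a difference. Counting intervals leave out the spread between mice, which 1 library per group cannot show. Bands 1 and 2 of the old library and band 1 of the young were not told apart from background. The same holds for bands 1 to 4 of the control library when all comparison cells are used. Old over control ratios may thus have background in the denominator. Only 10 UMIs lie behind *Stfa2* in band 5 of the control.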
